A study of Mus musculus with 11 samples.

Results

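A set of 10 Wnt pathway genes was followed in mouse small cell lung tumors whose MYCN transgene is controlled by doxycycline: the intracellular inhibitors Nkd1, Nkd2 and Axin2, the membrane ubiquitin ligases Znrf3 and Rnf43, the R-spondin receptor Lgr5, the nuclear factors Lef1, Tcf7 and Tcf7l2, and the transcription factor Sp5. They were taken by symbol, and all 10 were present among the 23284 genes of the count files. Poly(A) RNA was sequenced from 7 tumors kept on doxycycline (MYCN ON) and from 4 tumors after 7 days without it (MYCN OFF). All 11 tumors carried the genotype Rb;p53, TRE-MYCN and LSL-RTTA, that is Rb and p53 alleles, a MYCN transgene behind a doxycycline-responsive promoter, and a doxycycline transactivator that is expressed only after Cre recombination. The source of Cre, the age of the animals and the number of animals behind the tumors are not given in the labels. The p-values therefore measure the spread between these tumors. The drug and the transgene changed together, so their effects cannot be told apart.

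Wnt ligands bind a Frizzled receptor and an LRP co-receptor, which recruit Dishevelled and stop the destruction complex of Axin, APC and kinases from degrading beta-catenin. Beta-catenin then works in the nucleus with TCF and LEF proteins, and the genes they switch on include several that damp the pathway: Axin2 rebuilds the destruction complex, Nkd1 and Nkd2 bind Dishevelled, and Znrf3 and Rnf43 remove Frizzled from the cell surface unless R-spondin and an Lgr receptor hold them back. In the lung, Wnt signaling supports alveolar type II progenitors, and Axin2 marks the responding cells. Tcf7 and Lef1 are also abundant in T cells, so bulk counts of them may include other cells of the tumor.

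The genes were selected with their MYCN ON against MYCN OFF values in view. Their fold changes are therefore a description of these tumors, given with standard errors but without p-values. Levels are CPM, read counts scaled to library depth with TMM factors. Gene reads ranged from 10324089 to 13123838 per MYCN ON tumor and from 8951733 to 12190957 per MYCN OFF tumor. Mycn itself had 36.5 to 171 CPM in MYCN ON and 5.63 to 15.7 CPM in MYCN OFF, with no overlap. The difference was 3.06 on the log2 scale (SE 0.47), with an edgeR adjusted p of 0.00139. The species of the transgene is not given in the labels. Neuroendocrine markers summed to 2560 to 4389 CPM in MYCN ON and to 2030 to 8923 CPM in MYCN OFF.

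The tumors differed in their content of normal lung markers. Alveolar type II markers summed to 887 CPM or more in MYCN ON tumors 3 and 5 and MYCN OFF tumors 1, 3 and 4, and to 118 CPM or less in the other 6 tumors. These 6 are called lung-poor here and the other 5 lung-containing. MYCN OFF tumor 2 was the only lung-poor tumor of its group, and MYCN OFF tumor 1 had the highest sums of alveolar, club and ciliated, T cell, B cell, macrophage and endothelial markers. The alveolar type II sum spanned 41.0 to 2267 CPM in MYCN ON and 118 to 17080 CPM in MYCN OFF, all 8 of its markers had a lower mean in MYCN ON, and 4 of the 8 had no reads in MYCN ON tumor 2. In bulk tissue, fewer cells of a type and less RNA per cell cannot be told apart. A lung score, the mean log2 CPM of 18 alveolar, club and ciliated markers, and a T cell score over 9 markers were therefore set beside the Wnt genes.

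Promoter sequences are shown for Nkd1 and Axin2, the intracellular inhibitors called in most fits, and for Sp5, which was nearly without reads in MYCN ON, because TCF and LEF proteins bind close variants of one short core. RefSeq windows of GRCm38.p6, from 250 bases before to 50 after a start site, were found for 8 of the 10 genes, in 14 windows. The TCF/LEF forms searched, on both strands, were CTTTGAT, held by 3.73% of all promoter windows, CTTTGAA, held by 5.14%, CTTTGTT, held by 5.85%, and CTTTGTA, held by 3.63%. The E-box CACGTG, a form that MYC family proteins bind, was searched as well. Capitals mark matches, and the 250 bases before the start are printed 5′ to 3′ on the + strand, at chr8:88527383-88527632 for Nkd1, chr11:108920099-108920348 for Axin2 and chr2:70474673-70474922 for Sp5, in a later build than the counts.
Nkd1: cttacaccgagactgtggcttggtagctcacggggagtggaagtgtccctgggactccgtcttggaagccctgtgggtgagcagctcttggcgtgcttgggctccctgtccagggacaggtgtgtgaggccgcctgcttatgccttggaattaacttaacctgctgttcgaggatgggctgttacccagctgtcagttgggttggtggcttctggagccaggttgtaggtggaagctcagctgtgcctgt
Axin2: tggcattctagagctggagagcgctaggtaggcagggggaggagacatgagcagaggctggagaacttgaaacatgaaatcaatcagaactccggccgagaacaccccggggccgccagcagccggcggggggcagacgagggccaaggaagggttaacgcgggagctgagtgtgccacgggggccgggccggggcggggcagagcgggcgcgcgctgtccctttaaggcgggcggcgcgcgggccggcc
Sp5: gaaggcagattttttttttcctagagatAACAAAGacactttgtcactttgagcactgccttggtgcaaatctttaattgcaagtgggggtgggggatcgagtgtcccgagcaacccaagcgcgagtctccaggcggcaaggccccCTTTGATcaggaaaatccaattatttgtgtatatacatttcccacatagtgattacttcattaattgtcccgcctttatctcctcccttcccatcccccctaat
The Sp5 window held 2 matches that do not overlap, CTTTGTT on the reverse strand 222 bases before the start, printed as its complement, and CTTTGAT 104 bases before it. A TCF/LEF form was also found in 1 of the Lef1 windows and 1 of the Tcf7l2 windows, so 3 of 14 windows held one, against 16.9% of all 32851 promoter windows. CACGTG occurred in 1 window, of Lef1, against 7.15% of all windows. These letters were absent from the Nkd1 and Axin2 windows, which says nothing of sites elsewhere at those genes.

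Nkd1, which binds Dishevelled and blocks its signal, was lower in MYCN ON, and its highest MYCN ON value lay far under its lowest MYCN OFF value. MYCN ON tumors 1 to 7 had 21.4, 15.9, 20.7, 11.2, 22.3, 23.5 and 20.2 CPM, and MYCN OFF tumors 1 to 4 had 54.4, 60.6, 57.8 and 48.8 CPM. The means were 19.3 ± 4.29 CPM in MYCN ON and 55.4 ± 5.09 CPM in MYCN OFF (SD, n = 7 and 4), a log2 fold change of -1.52 (SE 0.20), or 2.87-fold higher in MYCN OFF. The gap between the groups exceeded the SD of either, and the highest value belonged to the lung-poor MYCN OFF tumor 2. The lung-containing MYCN ON tumors 3 and 5 had 20.7 and 22.3 CPM, within the 11.2 to 23.5 CPM of the lung-poor MYCN ON tumors. With the lung score as a covariate the log2 fold change was -1.46, and with the T cell score it was -1.53.

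Axin2, the Wnt-induced scaffold of the destruction complex, was lower in MYCN ON on average, with a small overlap. MYCN ON tumors had a lowest value of 7.05, a median of 11.4 and a highest value of 22.2 CPM, and MYCN OFF tumors 1 to 4 had 15.4, 45.2, 27.0 and 39.4 CPM. The overlap came from the lung-rich MYCN OFF tumor 1, which lay below MYCN ON tumors 2 and 7. The log2 fold change was -1.29 (SE 0.36). It was -1.51 with the lung score and -1.90 with the T cell score as a covariate, both further from 0. Among the lung-poor tumors, the 5 of MYCN ON had 7.05 to 22.2 CPM and the 1 of MYCN OFF had 45.2 CPM. Axin2 was not called when MYCN OFF tumor 2 or 4 was left out.

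Nkd2, the paralog of Nkd1, was not called and did not separate the groups. It ranged from 0.885 to 10.9 CPM in MYCN ON with a median of 0.942, and MYCN OFF tumors 1 to 4 had 7.44, 5.15, 4.73 and 3.56 CPM. In MYCN ON, 4 tumors lay below 1 CPM and tumors 1, 4 and 6 lay at 4.65, 3.88 and 10.9 CPM, so that tumor 6 exceeded every MYCN OFF tumor. The log2 fold change was -0.67 (SE 0.73).

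The membrane ligases Znrf3 and Rnf43, which do the same work on Frizzled, stood on opposite sides. Znrf3 had 78.4, 54.8, 68.5, 47.6, 41.4, 36.1 and 56.6 CPM in MYCN ON tumors 1 to 7, and 22.7, 34.5, 23.7 and 19.9 CPM in MYCN OFF tumors 1 to 4. The groups did not overlap, although the lung-poor MYCN OFF tumor 2 came just under the lowest MYCN ON tumor. The log2 fold change was 1.12 (SE 0.25), a 2.18-fold higher level in MYCN ON, and 0.95 with either marker score in the model.

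Rnf43 had 0 to 1.95 CPM in MYCN ON, with a median of 0.314, and 10.2, 0.198, 1.96 and 7.41 CPM in MYCN OFF tumors 1 to 4. The MYCN ON tumors held 43 Rnf43 reads in all and the MYCN OFF tumors 237, of which the lung-poor tumor 2 had 2. The highest MYCN ON value, in the lung-containing tumor 5, was close to that of MYCN OFF tumor 3. The log2 fold change of -3.25 (SE 1.03) came down to -0.97 with the lung score and -1.43 with the T cell score. Rnf43 and the alveolar type II sum were both highest in MYCN OFF tumor 1. The lung-containing MYCN ON tumor 3 had 0.314 CPM from 4 reads. The lung-poor MYCN ON tumors 2 and 4 had 0.354 and 0.705 CPM, from 4 and 8 reads, too few to order these tumors. Within MYCN ON, Rnf43 had a Pearson r of 0.59 with the lung score (n = 7, exact permutation p = 0.1645). That r was -0.33 without MYCN ON tumors 3 and 5. The part of alveolar markers in the Rnf43 difference was not tested beyond these values and fits. Rnf43 was called in 3 of the 11 fits that left 1 tumor out.

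Lgr5, the R-spondin receptor that marks Wnt-dependent stem cells of the intestine, was higher in MYCN ON on average but varied widely there. MYCN ON tumors 1 to 7 had 29.6, 13.0, 12.7, 29.6, 5.70, 21.6 and 4.35 CPM, and MYCN OFF tumors 1 to 4 had 2.0, 6.24, 7.77 and 2.25 CPM. MYCN ON tumors 5 and 7 lay within the MYCN OFF range and the other 5 above it. The log2 fold change was 1.86 (SE 0.63), and 0.91 with the lung score in the model. Lgr5 was called in 4 of the 11 fits that left 1 tumor out.

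**Figure D1:**
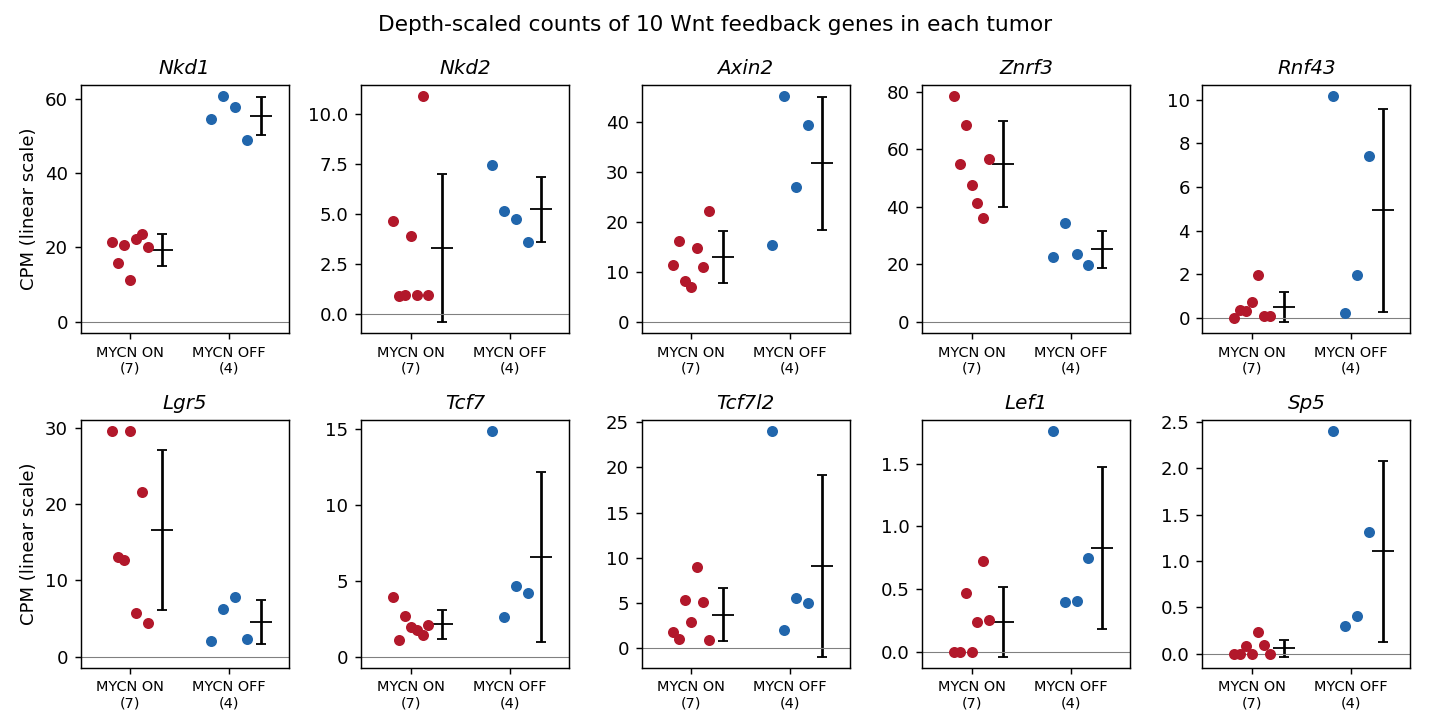
Each panel plots 1 gene in CPM on a linear axis, with 1 point per tumor, MYCN ON (red, 7 tumors) left of MYCN OFF (blue, 4 tumors), and the mean ± SD in black beside each group. Nkd1 and Znrf3 separate the groups without overlap, in opposite directions, while MYCN OFF tumor 1 alone makes up the upper end of Tcf7, Tcf7l2 and Lef1.

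The nuclear factors were low, and their MYCN OFF means rested on MYCN OFF tumor 1. Tcf7 had 1.06 to 3.95 CPM in MYCN ON, with a median of 1.94, and 14.9, 2.58, 4.66 and 4.22 CPM in MYCN OFF tumors 1 to 4 (log2 fold change -1.63, SE 0.52). Without MYCN OFF tumor 1 the log2 fold change was -0.84, and with the T cell score as a covariate it was -0.29. T cell markers summed to 7.17 to 23.6 CPM in MYCN ON and 16.45 to 163 CPM in MYCN OFF, 12 of 13 had a lower mean in MYCN ON, and none was at 0 in all tumors. Il7r, the most abundant of them, had at most 8.82 CPM in MYCN ON and at most 34.2 CPM in MYCN OFF.

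Tcf7l2, the main TCF of the gut and many other epithelia, had 0.920 to 8.98 CPM in MYCN ON, with a median of 2.91, and 24.0, 1.98, 5.61 and 4.97 CPM in MYCN OFF tumors 1 to 4. It was not called, and its log2 fold change of -1.29 (SE 0.73) turned to 0.45 with the lung score and 0.85 with the T cell score. The lung-containing MYCN ON tumors 3 and 5 had the highest MYCN ON values, 5.34 and 8.98 CPM.

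Lef1 and Sp5 were too sparse for the low-count filter. Lef1 had 20 reads over the 7 MYCN ON tumors, with 3 tumors at 0, and 40 reads over the 4 MYCN OFF tumors, of which 22 were in tumor 1. It ranged from 0 to 0.725 CPM in MYCN ON and from 0.396 to 1.76 CPM in MYCN OFF, and these ranges overlapped. Sp5, a Wnt-induced zinc finger factor, had 5 reads over the 7 MYCN ON tumors, with 4 tumors at 0. MYCN OFF tumors 1 to 4 held 30, 3, 6 and 14 Sp5 reads, or 2.40, 0.297, 0.405 and 1.31 CPM. The Sp5 ranges did not overlap in CPM, but MYCN OFF tumor 2 and MYCN ON tumor 5 had the same 3 reads, and MYCN OFF tumor 1, the most lung-rich, had the most. Fitted without a filter, Sp5 had a log2 fold change of -4.04 and Lef1 one of -1.80, values that depend on the prior count at such depths.

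**Figure D2:**
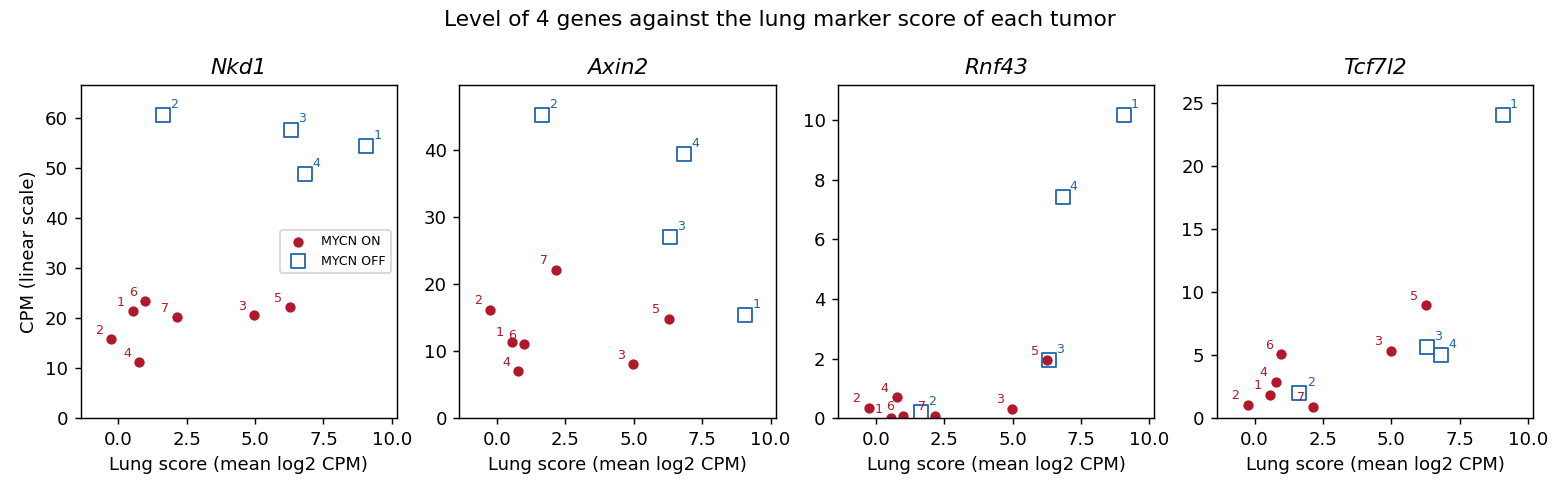
CPM of Nkd1, Axin2, Rnf43 and Tcf7l2 (vertical, linear) against the lung score of each tumor (horizontal, mean log2 CPM of 18 markers), with filled circles for MYCN ON, open squares for MYCN OFF and the tumor number beside each. MYCN OFF values of Nkd1 stay between 48.8 and 60.6 CPM across the whole range of lung score, whereas Rnf43 and Tcf7l2 peak in the lung-rich MYCN OFF tumor 1.

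Of the 10 genes, 8 passed the low-count filter. Of these, 2 were called higher in MYCN ON (Lgr5 and Znrf3), 4 were called lower (Nkd1, Axin2, Tcf7 and Rnf43) and 2 were not called at an edgeR adjusted p below 0.05, a threshold that 29.4% of all 15237 genes tested passed, 16.0% higher and 13.4% lower. With library totals in place of TMM, the calls over all genes were 1317 higher and 3347 lower, in place of 2437 higher and 2038 lower. The choice of the genes used this contrast, so nothing is read from their share. The ranges of the groups did not overlap for 2 of the 8, Nkd1 and Znrf3, against 16.8% of all genes, 11.4% higher and 5.41% lower in MYCN ON. Rnf43 reached the filter's CPM in 1 MYCN ON tumor and 3 MYCN OFF tumors, so it passed mainly through MYCN OFF. With either marker score as a covariate, Nkd1 and Axin2 remained the only genes of the set that were called, both lower, and Lgr5, Znrf3, Tcf7 and Rnf43 were not. With limma voom or without MYCN OFF tumor 1, the called genes were Znrf3, Nkd1 and Axin2. Nkd1 was called in all 22 alternative fits, Znrf3 in 20, Axin2 in 19, Tcf7 in 11, Rnf43 in 9 and Lgr5 in 7.

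**Figure D3:**
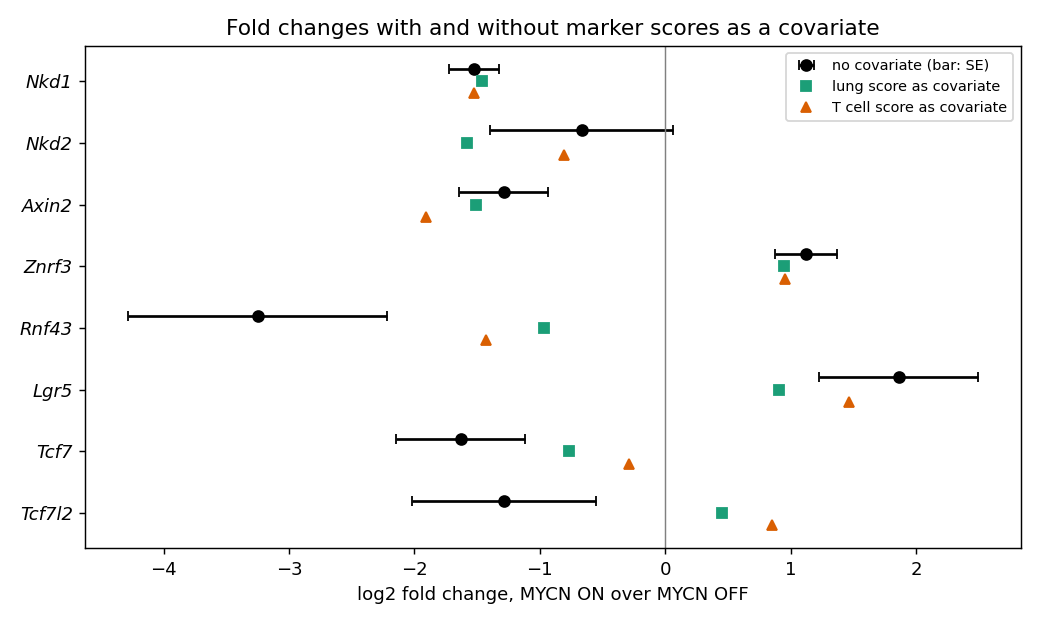
Log2 fold change of MYCN ON over MYCN OFF (horizontal) for the 8 genes that passed the filter, without a covariate (black circles, bars are SE), with the lung score (green squares) and with the T cell score (orange triangles). Nkd1 stays between -1.53 and -1.46, Rnf43 moves from -3.25 to -0.97 with the lung score, and Tcf7l2 changes sign.

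Set per kilobase of exon, so that genes can be compared, the order of levels differed between the groups. In MYCN ON, Znrf3 was first at 6.94 ± 1.89 CPM per kb, Nkd1 followed at 4.23 ± 0.94, Axin2 at 2.36 ± 0.95 and Lgr5 at 1.62 ± 1.02 (SD, n = 7). In MYCN OFF, Nkd1 was first at 12.2 ± 1.12 CPM per kb, Axin2 followed at 5.76 ± 2.41 and Znrf3 at 3.19 ± 0.81 (SD, n = 4), while Lgr5 was ninth of 10 at 0.445 ± 0.28. Between neighbours in these orders, only Nkd1 and Axin2 in MYCN OFF had ranges that did not overlap. Lef1 was last in both groups, at 0.0273 CPM per kb in MYCN ON and 0.0942 in MYCN OFF. Exon lengths came from another mouse build and annotation than the counts, so these levels are approximate.

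The genes did not vary as one block within the groups. After the group means were subtracted, the 28 pairs among the 8 genes had Pearson r from -0.69 (Axin2 with Tcf7l2) to 0.69 (Tcf7l2 with Rnf43) over 11 tumors. Nkd1 had r of 0.29 with Axin2, 0.12 with Znrf3 and 0.05 with Nkd2. The values are a description: a tumor's lung content, which differed between tumors, is common to all of its values. The genes most like Nkd1 over all 11 tumors, among 13637 compared, were the fatty acid transporter Slc27a1 (r = 0.98), the amino acid transporter Slc43a2 (0.96), Slc41a3 (0.96), the TNF receptor Tnfrsf1a (0.95) and Trim7 (0.95), which all had a lower mean in MYCN ON. With group means subtracted they were Slc25a22 (0.89), Upk3b (0.88), Ncs1 (0.86), Dolpp1 (0.85) and Gatm (0.85), so the lists had no gene in common.

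Within MYCN ON, where the Mycn level spanned 36.5 to 171 CPM, none of the 8 genes followed Mycn after adjustment over the 8 relations. The comparison was chosen after the data were seen. Nkd1 had a Pearson r of 0.01 with Mycn (n = 7, two-sided exact permutation p = 0.975, adjusted p = 0.975) and a Spearman rho of 0.29 (exact permutation p = 0.556). Lgr5 had the highest r, 0.77 (n = 7, exact permutation p = 0.0492, adjusted p = 0.237), with a rho of 0.57 (exact permutation p = 0.2), and r was 0.83 without MYCN ON tumors 2 and 5, which lay farthest from the median Mycn level. Nkd2 had the highest rho, 0.82 (n = 7, exact permutation p = 0.0341, adjusted p = 0.273), with an r of 0.70 (exact permutation p = 0.0889). Mycn and the lung score had an r of -0.44 in these tumors (n = 7, exact permutation p = 0.315). Of 8 further relations, of each gene with the lung score, the lowest exact permutation p was 0.0845 (Tcf7l2, r = 0.70, n = 7, adjusted p = 0.439), and that r was -0.07 without MYCN ON tumors 3 and 5.

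The rest of the pathway was described by 142 genes in 7 lists by role, of which 120 were tested. Of these, 15 were higher and 13 lower in MYCN ON and 92 were not called. The share called was 23.3%, beside 29.4% of all genes. Their median log2 fold change was -0.06, against 0.00 for all genes tested. The ranges did not overlap for 15 of the 120, or 12.5%, against 16.8% of all genes. The 13 lower genes include Notum, Wnt7a and Wnt7b, which passed the filter only or mainly through MYCN OFF. Notum is also among the 15 without overlap, so nothing is read from these shares. Lung and T cell markers moved with the groups here too. Once the model held the lung score, 5 pathway genes were higher and 4 lower. The calls over all genes fell in the same fit, from 2437 higher and 2038 lower to 1096 higher and 495 lower.

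Wnt ligands were the list with the lowest median. Of 13 tested ligand genes 5 fell and 0 rose, or 38.5% lower, beside 13.4% of all genes. Their median log2 fold change was -1.22, and it was -0.58 without MYCN OFF tumor 4 and -2.05 without MYCN OFF tumor 2. The number lower was 2 without MYCN OFF tumor 1 or 4 and with either marker score. Wnt7a and Wnt7b reached the filter's CPM in only 2 MYCN ON tumors each, beside 4 and 3 MYCN OFF tumors. Wnt7a thus passed the filter only through MYCN OFF, and Wnt7b mainly so. The 38.5% counts both genes, so nothing is read from that share. Wnt7a is named after its values were seen. Wnt9a had at most 1.72 CPM in MYCN ON and 5.44 to 12.2 CPM in MYCN OFF (log2 fold change -2.62, edgeR adjusted p = 0.00307). Wnt4 had 1.59 to 9.21 CPM in MYCN ON and 7.97 to 24.0 CPM in MYCN OFF (log2 fold change -2.11, edgeR adjusted p = 0.00747). Both kept their call with either marker score. Wnt4 lost it with the replicate block. Wnt11 had a log2 fold change of -2.58 (edgeR adjusted p = 0.018). Wnt7b, an airway epithelial ligand, had one of -3.30 (SE 0.91), given without a p-value because it passed the filter mainly through MYCN OFF. Both lost their call with either marker score and without MYCN OFF tumor 1 or 4. Wnt11 also lost it with limma voom. With the lung score the log2 fold changes were -0.93 for Wnt11 and -1.43 for Wnt7b.

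Among 15 secretion genes and secreted inhibitors, 2 fell and 0 rose, or 13.3% lower, beside 13.4% of all genes. Notum, a Wnt-induced enzyme that strips the lipid from Wnt ligands and so inactivates them, had 0 to 3.17 CPM in MYCN ON with a median of 0.546, and 12.7 to 35.9 CPM in MYCN OFF. Notum reached the filter's CPM in 2 of 7 MYCN ON tumors and in all 4 MYCN OFF tumors, so it passed the filter only through MYCN OFF. The 13.3% counts Notum, so nothing is read from that share. The ranges of Notum did not overlap, and its log2 fold change was -4.56 (SE 0.86). These values are a description without a p-value, since Notum was tested only because of its MYCN OFF level. With the lung score as a covariate the log2 fold change of Notum was -4.94. Wls, the carrier that takes Wnt ligands to the cell surface, had a mean of 19.5 ± 7.49 CPM in MYCN ON and 57.1 ± 41.7 CPM in MYCN OFF (edgeR adjusted p = 0.0249) and lost its call with either marker score and without MYCN OFF tumor 1. Wls also lost it with limma voom. Its log2 fold change was -0.36 with the lung score and -0.11 with the T cell score. The median of this list, -0.43, turned positive with either score, and was -0.08 without MYCN OFF tumor 3 and -0.74 without MYCN OFF tumor 2.

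Receptors had 3 genes that rose and 1 that fell among 17 tested. These are 17.6% and 5.88%, beside 16.0% and 13.4% of all genes. Fzd3, a Frizzled known for axon guidance and planar cell polarity, had 89.3 to 175 CPM in MYCN ON and 20.0 to 34.2 CPM in MYCN OFF. The log2 difference of Fzd3 was 2.19 (SE 0.23), with an edgeR adjusted p of 0.000343. It kept its call with either marker score (log2 fold change 2.14 with the lung score, adjusted p = 0.00396). The co-receptor Lrp6 and the receptor Ryk had log2 fold changes of 0.51 and 0.71 (edgeR adjusted p = 0.0312 and 0.0466). They lost their call in 5 and 9 of the 11 fits with 1 tumor left out, and with either marker score. Ryk also lost it with limma voom. Both lost it with RLE, upper quartile and library-total scaling, without a low-count filter and with the replicate block. Their log2 fold changes with the scores were no smaller: 0.63 (lung) and 0.68 (T cell) for Lrp6, and 0.76 (lung) and 0.74 (T cell) for Ryk. Fzd1 went the other way (log2 fold change -1.71, edgeR adjusted p = 0.0237) and lost its call with either score (-0.75 with each) and without MYCN OFF tumor 1 or 4. The list median of 0.23 was -0.12 without MYCN ON tumor 1 and 0.47 without MYCN OFF tumor 1. It was -0.07 with library totals, a scaling that moved the median of all genes by -0.31. Without MYCN ON tumor 1 or MYCN OFF tumor 3 or 4, 1 receptor was higher.

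The destruction complex list also held genes that act on Axin or on LRP6, such as Tnks2 and Csnk1g3. Of the 18 tested genes of this list 5 rose, or 27.8%, beside 16.0% of all genes, and 0 fell. Axin1 and Apc, named after their values were seen, were not called (log2 fold change 0.44 and 0.49, edgeR adjusted p = 0.142 and 0.24). The median log2 fold change of the list was 0.50, or 0.19 with library totals. Without MYCN OFF tumor 2, the lung-poor one, 10 genes were higher and the median was 0.82. In that fit 2955 of all 15506 genes tested were higher, in place of 2437 of 15237. With the lung or T cell score 2 genes of the list were higher, with medians of 0.17 and 0.13. Fam123b, which encodes the APC-binding protein WTX, had 51.0 to 71.1 CPM in MYCN ON and 26.6 to 43.1 CPM in MYCN OFF (log2 fold change 0.94, edgeR adjusted p = 0.00289). Csnk1a1, the kinase that primes beta-catenin for degradation, had 206 to 296 CPM in MYCN ON and 94.1 to 174.5 CPM in MYCN OFF (log2 fold change 0.82, edgeR adjusted p = 0.00722). Both kept their call with either marker score. Tnks2, a tankyrase that marks Axin for degradation, and Csnk1g3, of a kinase family that phosphorylates LRP6, had log2 fold changes of 0.90 and 0.92 (edgeR adjusted p = 0.00617 and 0.0104), and lost their call with either score. Tnks2 kept a log2 fold change of 0.87 with the lung score (adjusted p = 0.0518) and 0.92 with the T cell score (adjusted p = 0.0589), and Csnk1g3 had 0.63 and 0.62.

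Among 15 tested genes of Dishevelled and its regulators, 2 rose and 1 fell. These are 13.3% and 6.67%, beside 16.0% and 13.4% of all genes. In each fit with 1 tumor left out, 1 or 2 were higher. Ccdc88c, the Dishevelled-binding protein Daple, had 44.3 to 82.2 CPM in MYCN ON and 18.8 to 31.2 CPM in MYCN OFF (log2 fold change 1.23, edgeR adjusted p = 0.00225), and kept its call with either marker score. Prickle2, a planar polarity protein, had 2.56 to 19.1 CPM in MYCN ON and 27.2 to 42.7 CPM in MYCN OFF (log2 fold change -1.68, edgeR adjusted p = 0.018), and lost its call with either score. With the lung score its log2 fold change was -1.75 (adjusted p = 0.0679), and with the T cell score it was -1.99 (adjusted p = 0.058), both further from 0. Daam1, a formin that binds Dishevelled, had a log2 fold change of 0.51 (edgeR adjusted p = 0.0357). It lost its call in 8 of the 11 fits with 1 tumor left out, and with either score. Daam1 also lost it with RLE, upper quartile and library-total scaling, without a low-count filter and with the replicate block. Its log2 fold change was 0.52 with the lung score and 0.63 with the T cell score.

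The nuclear effectors and corepressors had 4 of 22 genes higher and 3 lower. These are 18.2% and 13.6%, beside 16.0% and 13.4% of all genes. The list median of 0.07 was negative in 7 of 10 other fits over all tumors. It was also negative without MYCN ON tumor 7 or MYCN OFF tumor 1 or 3. Without MYCN ON tumor 4 or MYCN OFF tumor 4, 1 gene was lower. Chd8, a chromatin remodeler that binds beta-catenin and restrains it, had 178 to 328 CPM in MYCN ON and 99.4 to 134 CPM in MYCN OFF (log2 fold change 0.94, edgeR adjusted p = 0.00437). Its adjusted p was 0.0445 with the lung score and 0.0537 with the T cell score. The corepressor Ctbp2 and the cofactor Tbl1xr1 had log2 fold changes of 0.84 and 0.54 (edgeR adjusted p = 0.0122 and 0.012), and both lost their call with library totals and with either score. With the lung score they were 0.73 for Ctbp2 and 0.43 for Tbl1xr1. Tbl1xr1 also lost its call with the replicate block. Tle6, of the Groucho family, had a log2 fold change of -1.96 (edgeR adjusted p = 0.0257) and missed the threshold without MYCN OFF tumor 2.

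Of 20 further genes often cited as Wnt targets, 1 rose and 1 fell. Among all genes tested, 16.0% were higher and 13.4% lower, so this list was called less often in both directions. Myc, a Wnt target in the intestine, had 2.26 to 5.78 CPM in MYCN ON and 7.33 to 11.4 CPM in MYCN OFF, with no overlap (log2 fold change -1.51, edgeR adjusted p = 0.00842), and lost its call with the lung score (-1.17, adjusted p = 0.0701) and the T cell score (-1.21, adjusted p = 0.0849). Tiam1, an activator of the GTPase Rac, had a log2 fold change of 0.92 (edgeR adjusted p = 0.0353). It lost its call with either marker score and in 7 of the 11 fits with 1 tumor left out. Tiam1 also lost it with upper quartile and library-total scaling and with the replicate block. Its log2 fold change was 0.73 with the lung score and 0.75 with the T cell score. The median of this list, -0.28, turned to 0.44 with the lung score, and was -0.03 without MYCN OFF tumor 1 and -0.63 without MYCN OFF tumor 2. Leaving out 1 tumor gave 1 to 3 lower genes, the most without MYCN OFF tumor 2.

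**Figure D4:**
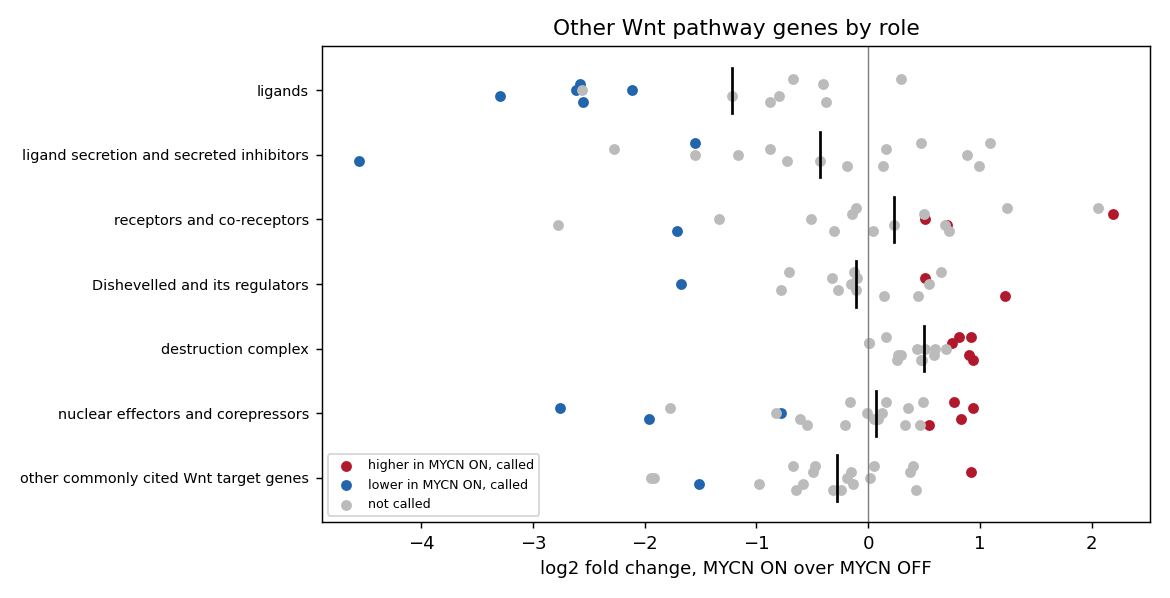
Log2 fold change of MYCN ON over MYCN OFF (horizontal) for the 120 tested pathway genes, 1 point per gene, in rows by role, red where called higher, blue where called lower and grey where not called, with the list median as a black bar. The 5 called ligands lie left of 0 and the 5 called genes of the destruction complex list right of it. Notum is the point farthest left and Fzd3 the red point farthest right.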

How the data were processed

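The deposited files hold raw whole-number counts of reads by gene symbol, 1 file per tumor. Build mm9, TopHat2 2.0.8b, HTSeq 0.6.1 and bcl2fastq 1.8.4 are named in the submitters' processing notes. The annotation and the strand setting are not given in the sources used here. Antisense or overlapping genes may therefore share reads. Each file ended with 5 summary rows that name no gene and were left out; reads with no annotated gene were 14.8% to 21.5% and reads with several alignments 9.15% to 20.9% of a tumor's records.

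The counts went into edgeR 4.0.16 under R 4.3.3: filterByExpr by group (minimum count 10, minimum total 15; 15237 genes left), TMM factors, and the robust quasi-likelihood test of MYCN ON over MYCN OFF without covariates. Adjusted p-values are Benjamini-Hochberg over all genes tested. SE is the absolute log2 fold change over the square root of F. Log2 CPM used a prior count of 2. Exon lengths were GENCODE M21 unions (GRCm38). The biological coefficient of variation was 53.7%, so differences among tumors, more than depth, set the precision.

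Pathway genes were named by a rule: up to 4 called genes per list with the smallest p and at least 1 CPM. For likeness to Nkd1 it named the 5 genes with the highest r by each of both measures. Genes and lists were chosen with earlier results of these data known. Alternatives were RLE, upper quartile and library-total scaling, DESeq2 1.42.0, limma 3.58.1 voom, other filters, a replicate block, the marker scores, a threshold of 0.01 and each tumor left out. The replicate block treated same-numbered tumors as a pair. MYCN ON tumors with no MYCN OFF tumor of their number do not inform its fold changes, so that fit rests on fewer tumors.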

Additional observations from a re-analysis of the deposited data

Results flagged for a closer look

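In 68 comparisons of a tumor with the rest of its group, for 34 genes, 2 values stood apart by the gap to the nearest tumor over the group's range; chance flags about 1 in 20. Wnt4 had 7.97 CPM in MYCN OFF tumor 3, against 21.4 to 24.0 CPM in the other MYCN OFF tumors. Chd8 had 328 CPM in MYCN ON tumor 1, against 178 to 215 CPM in the other MYCN ON tumors. These values were compared on the log2 scale, where no value of the 10 feedback genes stood apart. On the CPM scale, examined after the data were seen, 5 of 20 comparisons of those genes did: MYCN OFF tumor 1 for Tcf7 (gap over range 0.831) and Tcf7l2 (0.835), MYCN ON tumor 6 for Nkd2 (0.623), and MYCN ON tumor 5 for Sp5 (0.613) and Rnf43 (0.639).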

How the results depend on the processing

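Mycn kept its direction and call in all 22 alternative fits (log2 fold change 2.71 to 3.26), and Nkd1 did so with log2 fold changes of -1.83 to -1.43. Of the 10 genes, 2 were called higher and 4 lower. This became 1 higher with library totals and with upper quartile factors, 1 higher without a filter (5 lower, Sp5 added), 1 higher and 2 lower with limma voom and with the replicate block, 0 higher and 2 lower with the lung score and with the T cell score, and 1 higher and 1 lower at an adjusted p below 0.01. With 1 tumor left out, 1 to 2 were higher and 2 to 4 lower. The covariates moved Axin2 to -1.90 (T cell), Tcf7 to -0.77 (lung) and -0.29 (T cell), Tcf7l2 to 0.45 and 0.85, and Rnf43 to -0.97 and -1.43. Without MYCN OFF tumor 1, Tcf7 was at -0.84; over all fits with 1 tumor left out it ranged from -1.97 to -0.84.

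Of the other pathway genes, 15 were higher and 13 lower. Upper quartile factors gave 9 higher, library totals 7 higher, the lung score 5 higher and 4 lower, the T cell score 4 higher and 5 lower, and an adjusted p below 0.01 gave 6 higher and 4 lower; with 1 tumor left out 9 to 21 were higher and 7 to 17 lower, with 9 higher without MYCN ON tumor 1 or MYCN OFF tumor 3, 9 higher and 7 lower without MYCN OFF tumor 4, and 7 lower without MYCN OFF tumor 1. Over all genes, 2437 were higher and 2038 lower. Library totals gave 1317 higher and 3347 lower, the replicate block 1152 lower, the lung score 1096 higher and 495 lower, the T cell score 1017 higher and 566 lower, and the stricter threshold 1187 higher and 516 lower; with 1 tumor left out 1674 to 2955 were higher and 1015 to 2438 lower. Higher calls made up 54.5% of all calls with TMM, 28.2% with library totals and 37% with upper quartile factors. The labels do not say whether same-numbered tumors belong together. Deviations of same-numbered tumors correlated at -0.16 to 0.46, and 2 of 4 MYCN OFF tumors correlated best with their own number. These values do not settle whether the numbers mark a pairing. The causes of these changes were not tested. Lef1, Sp5 and Rnf43 had few reads, 5 to 43 each over the 7 MYCN ON tumors.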
